A study of Mus musculus with 4 samples.

Results

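The 6 genes Kdm2a, Kdm2b, Kdm4a, Kdm4b, Kdm4c and Kdm4d encode the lysine demethylases of the Kdm2 and Kdm4 families, grouped here as enzymes that take methyl groups off H3K36, although Kdm4d is better known for H3K9. They were taken by family membership, as the 6 rows of the deposited count table that carry these symbols, out of 44788 rows. RNA was measured by sequencing in bone marrow stromal cells of Setd2 fl/fl mice (C57BL/6J), at passage 2. The control cells received a lentivirus for GFP and the others a lentivirus for Cre recombinase, which deletes the floxed part of Setd2, with 2 libraries for each virus. Both groups carried the floxed alleles, a lentivirus and puromycin selection at 2 µg/ml for 4 days. The labels are silent on the age of the mice, the promoter that drives Cre, and whether the 2 libraries of each virus were grown or collected separately. The p-values therefore cover the spread between 2 such libraries alone, possibly a technical one, and Cre itself cannot be told apart from loss of Setd2.

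Methylation of H3K36 marks transcribed chromatin. Setd2 places the third methyl group, and the Nsd enzymes and Ash1l place the lower states. The demethylases oppose them through a JmjC domain, an iron enzyme that uses oxygen and 2-oxoglutarate. Kdm2a and Kdm2b remove the lower methylation states of H3K36 and hold a CXXC zinc finger that binds unmethylated CG dinucleotides in CpG islands. Kdm4a, Kdm4b and Kdm4c remove the higher states of both H3K36 and H3K9 and hold PHD and Tudor domains, whereas Kdm4d lacks those domains and is known for H3K9 rather than H3K36.

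Library totals ran from 12371994 to 14315903 counts, and a floor of 3 counts corresponded to 0.207 to 0.255 CPM (counts scaled to a common library size with TMM factors). GFP replicate 2 stood apart, with 7.45% of its counts on the 18S ribosomal RNA gene Rn18s-rs5 against 1.21% to 2.07% in the other libraries. Without it edgeR called 0 of 15034 tested genes, with 2197 at an unadjusted p under 0.05, and without GFP replicate 1 it called 12. Stromal genes were abundant, with Col1a1 at 6896 and 9901 CPM and Col1a2 at 7116 and 8681 CPM (GFP and Cre means), and of the 10 stromal markers 5 rose and 1, Cxcl12, fell (661 to 544 CPM). For these and the following markers, rose and fell mean an adjusted p under 0.05 in edgeR with all 4 libraries. Over all tested genes 3.74% rose and 3.22% fell by this rule. Genes of macrophages were abundant too: the 8 markers summed to 1946 and 2006 CPM with GFP and to 2293 and 2286 CPM with Cre, with Lyz2 going from 1398 to 1691 CPM (3 of 8 rose) and Emr1, the F4/80 antigen, from 196 to 160 CPM (1 of 8 fell). The 6 osteoclast markers, led by Ctsk and Acp5, summed to 94.1 and 91.0 CPM with GFP and to 76.1 and 85.1 CPM with Cre, and Acp5 fell (22.2 to 16.3 CPM, log2 fold change -0.45), but Calcr, Ocstamp, Dcstamp and Oscar had 1 to 13 counts. The 5 endothelial markers, led by Kdr and Emcn, summed to 7.05 to 9.67 CPM. The adipocyte markers (Cidec and Lep at 0 counts in all libraries, Adipoq at up to 2 and Plin1 at up to 1) and the lymphoid and erythroid markers (Cd3e, Hbb-bs and Hba-a1 at 0, Cd79a at up to 2) summed to at most 0.152 CPM. In such a bulk sample, fewer cells of a type and less RNA per cell cannot be told apart, and the part of the macrophage share in the levels below was not tested.

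The annotated starts of these genes differ in their CG content. This is shown because CG dinucleotides are what the CXXC finger of the Kdm2 proteins binds. In addition, the Kdm2b total can mix transcripts from distant annotated starts, and which of them are used in these cells was not tested. RefSeq (GRCm38.p6) gave 8 start windows for 4 of the genes, Kdm2b, Kdm4a, Kdm4c and Kdm4d. The 250 bases before the start are printed 5′ to 3′ on the strand of the gene, with each CG in capitals. They are those of the most abundant member, of the member near the detection floor, and of the outer and inner start of Kdm2b.
Kdm4a (chr4:118180044-118180293, minus strand): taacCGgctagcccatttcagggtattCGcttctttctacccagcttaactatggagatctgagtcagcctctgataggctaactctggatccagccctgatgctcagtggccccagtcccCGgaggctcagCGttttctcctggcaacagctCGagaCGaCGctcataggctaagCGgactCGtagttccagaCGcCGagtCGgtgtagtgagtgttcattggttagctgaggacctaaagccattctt
Kdm4d (chr9:14500483-14500732, minus strand): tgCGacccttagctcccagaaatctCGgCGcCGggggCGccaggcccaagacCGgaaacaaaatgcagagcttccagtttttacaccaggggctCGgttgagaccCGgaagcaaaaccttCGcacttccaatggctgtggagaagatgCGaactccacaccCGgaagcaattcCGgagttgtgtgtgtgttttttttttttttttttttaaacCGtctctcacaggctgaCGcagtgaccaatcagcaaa
Kdm2b, outer start (chr5:122989100-122989349, minus strand): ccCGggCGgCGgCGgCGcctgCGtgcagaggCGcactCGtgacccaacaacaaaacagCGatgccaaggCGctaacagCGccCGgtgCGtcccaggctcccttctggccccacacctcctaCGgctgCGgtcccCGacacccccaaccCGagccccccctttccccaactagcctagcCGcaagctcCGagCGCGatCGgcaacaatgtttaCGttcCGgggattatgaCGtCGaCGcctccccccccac
Kdm2b, inner start (chr5:122900351-122900600, minus strand): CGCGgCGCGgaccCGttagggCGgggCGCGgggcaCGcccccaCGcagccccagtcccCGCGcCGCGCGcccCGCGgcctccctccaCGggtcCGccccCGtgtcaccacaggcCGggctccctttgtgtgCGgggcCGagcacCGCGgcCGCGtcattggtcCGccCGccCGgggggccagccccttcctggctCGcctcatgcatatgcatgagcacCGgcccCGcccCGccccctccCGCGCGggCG

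The Kdm4a window held 12 CG and the Kdm4d window 14 CG, more than 66.5% and 70.6% of all windows. The outer start of Kdm2b had 27 CG, more than 91.4% of the 32851 windows of this length. The inner start, 88.7 kb further along, had 38 CG, more than 98.1%. Kdm2b windows near these starts that are not printed had 12 CG (outer, more than 66.5%) and 36 CG (inner, more than 97.4%). The motif CG reads the same on both strands. At least 1 CG was found in 92.1% of all windows, with a median of 6. For Kdm4c, 1 of the 2 annotated starts had 0 CG and the other 19. These letters describe the windows and show no binding.

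Per kilobase of exon, the order of the levels was Kdm4a, Kdm2a, Kdm4b, Kdm4c, Kdm2b and Kdm4d. Kdm4a stood at 24.0 and 26.4 CPM per kb in the GFP libraries and at 26.1 and 26.6 in the Cre libraries. It made up 49.5% to 51.9% of the summed level of the 6 genes. Kdm2a, with 9.80 and 10.3 (GFP) and 9.82 and 9.34 (Cre) CPM per kb, and Kdm4b, with 7.90 and 8.89 (GFP) and 9.34 and 8.94 (Cre), are neighbours whose ranges over the 4 libraries touched, although Kdm2a was the higher within each library. Kdm4c (4.08 to 4.55 CPM per kb) and Kdm2b (2.09 to 2.36) were separated from each other and from the genes above them in all 4 libraries. Kdm4d had 0.0266 to 0.193 CPM per kb.

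Dividing by the longest transcript instead of all exon bases kept this order and raised Kdm2a to a mean of 16.5 and Kdm2b to 4.60 CPM per kb, clear of Kdm4b at 9.38 and below Kdm4c at 6.05. The choice matters because Kdm2a has 14 annotated transcripts with 14.4 kb of exon bases in all and a longest transcript of 8.58 kb. The summed level of the Kdm4 genes was 38.1 ± 2.29 CPM per kb with GFP and 39.9 ± 0.104 with Cre, and that of the Kdm2 genes 12.2 ± 0.308 and 11.8 ± 0.507 (mean ± SD, n = 2 each).

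**Figure D1:**
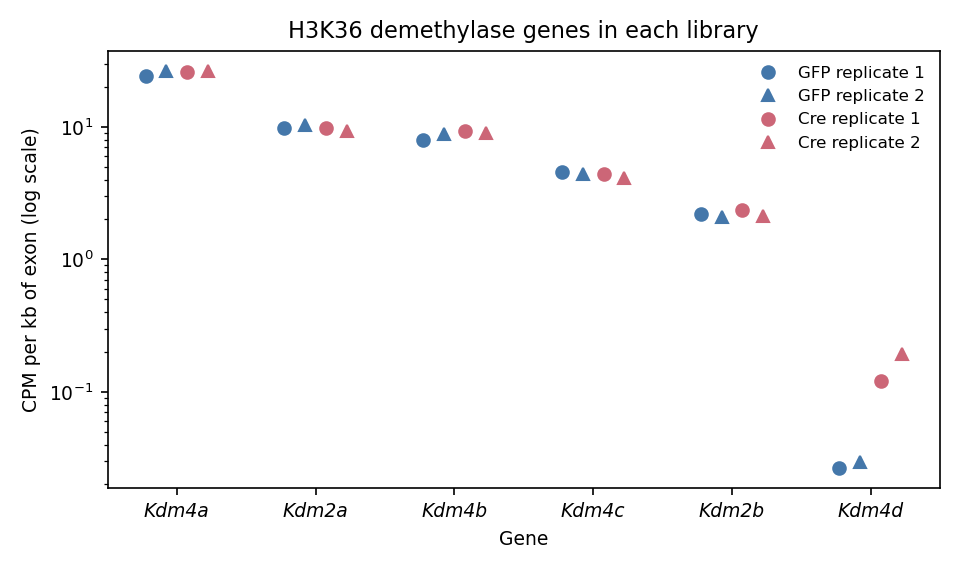
Level of each demethylase gene in each library, in CPM per kb of exon on a log axis, with blue for GFP, red for Cre, circles for replicate 1 and triangles for replicate 2. The 4 libraries nearly coincide for each gene from Kdm4a (24.0 to 26.6) down to Kdm2b (2.09 to 2.36), and only Kdm4d, with 1 to 8 counts, spreads visibly.

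The comparison of Cre with GFP asks whether transcripts of the demethylases shift when the main enzyme that completes the mark is lost. None of the 5 members with enough counts for the test passed it: edgeR's quasi-likelihood test called 0 of 5 at an adjusted p of 0.05, and 0 of 5 had an unadjusted p under 0.05, and DESeq2 also gave 0 on both measures for these 5. Over all 14483 tested genes, 6.97% were called (3.74% higher and 3.22% lower in Cre) and 20.9% had an unadjusted p under 0.05. A count of 0 among 5 is thus near the background. The median log2 fold change of the 5 was 0.06, beside -0.004 over all tested genes, with 3 values above 0 and 2 below. Without GFP replicate 1 the median of the 5 was -0.0022 and without Cre replicate 1 it was -0.011.

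Kdm2a, the more abundant Kdm2 gene, lies on chromosome 19 from 4314419 to 4398285 (GRCm38, GENCODE M21). It had 1861 and 1754 counts with GFP and 2049 and 1953 with Cre, which is 142 and 149 CPM against 142 and 135 CPM. The groups overlapped, and Cre replicate 2 was the lowest library. Its log2 fold change was -0.07 (95% interval -0.20 to 0.06, adjusted p = 0.571 in edgeR), so that falls beyond 0.870-fold and rises beyond 1.04-fold lie outside the interval. When trends with GC content and transcript length were removed from each library, the value was 0.02, on the other side of 0.

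Kdm2b guides a variant Polycomb complex, PRC1.1, to CpG islands. It lies on chromosome 5 from 122870665 to 122989823. It had 313 and 267 counts with GFP and 371 and 333 with Cre, or 23.8 and 22.7 CPM against 25.7 and 23.0 CPM. GFP replicate 1 lay between the Cre libraries, so the groups overlapped. The log2 fold change was 0.06 (95% interval -0.13 to 0.26, adjusted p = 0.767 in edgeR). Both Kdm2 genes are known to make short forms without the JmjC domain from internal starts, and a gene total cannot separate these from the demethylase forms. In addition, 8.74% of the exon bases of Kdm2b are shared with Rnf34, A930024E05Rik or Gm44574.

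Kdm4a, the most abundant member per length, lies on chromosome 4 from 118136957 to 118180043. It had 1825 and 1792 counts with GFP and 2180 and 2225 with Cre, or 139 and 153 CPM against 151 and 154 CPM. The low library was GFP replicate 1, and GFP replicate 2 fell between the Cre libraries. The log2 fold change was 0.06 (95% interval -0.07 to 0.20, adjusted p = 0.627 in edgeR). The difference between the GFP libraries (0.14 on the log2 scale) was larger than that between the groups.

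Kdm4b, on chromosome 17 from 56326062 to 56402870, had the largest value of the 5. Its counts were 508 and 511 with GFP and 661 and 633 with Cre, or 38.7 and 43.5 CPM against 45.7 and 43.7 CPM. Both Cre libraries lay above both GFP libraries, but GFP replicate 2 was nearly level with Cre replicate 2. The fold was 1.09 (log2 fold change 0.13, 95% interval -0.04 to 0.29, adjusted p = 0.402 in edgeR). Without GFP replicate 2 the value was 0.21 with an unadjusted p of 0.0444 in edgeR, and the lowest adjusted p over all alternatives was 0.332. With GC content and length trends removed it was 0.05.

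Kdm4c, on chromosome 4 from 74242497 to 74405860, pointed the other way. It had 348 and 302 counts with GFP and 370 and 344 with Cre, or 26.5 and 25.7 CPM against 25.6 and 23.8 CPM. Both Cre libraries lay below both GFP libraries, with GFP replicate 2 and Cre replicate 1 almost level. The log2 fold change was -0.08 (95% interval -0.27 to 0.11, adjusted p = 0.680 in edgeR). Kdm4b and Kdm4c are the 2 of 5 tested members whose groups did not overlap, and over all tested genes 50.0% had groups that did not overlap (24.5% with Cre above, 25.5% with Cre below). With 2 libraries against 2, an exact permutation test of a single gene cannot go below p = 0.333 (two-sided).

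Kdm4d, on chromosome 9 from 14462548 to 14500482, was close to undetected. Its counts were 1 and 1 with GFP and 5 and 8 with Cre, or 0.0761 and 0.0852 CPM against 0.346 and 0.553 CPM. Both GFP libraries were under the floor of 3 counts and both Cre libraries above it. The pooled 2 and 13 counts give a ratio of 5.59 with a 95% exact interval of 1.27 to 51.0, which covers counting error only. The gene did not reach the minimum count of the test. Without a low-count filter edgeR gave it an unadjusted p of 0.0175 and an adjusted p of 0.326, and DESeq2 gave an unadjusted p of 0.124 and no adjusted p. Its noncoding relative Kdm4dl had 2 and 0 counts with GFP and 1 and 0 with Cre, and how reads shared between the copies were counted is not stated in the labels or processing notes.

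**Figure D2:**
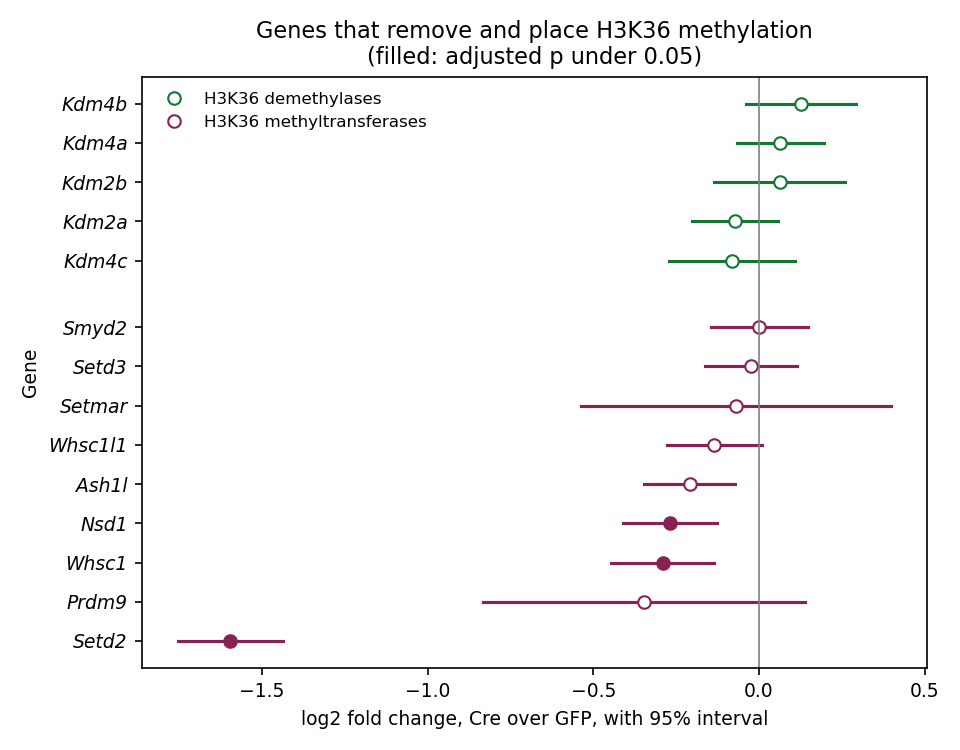
log2 fold change of Cre over GFP with its 95% interval for the 5 tested demethylases (green) and the 9 H3K36 methyltransferases (purple), filled where the adjusted p is under 0.05. All 5 green intervals include 0 and stay between -0.27 and 0.29, while Setd2, Whsc1 and Nsd1 are filled and lie below 0.

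Setd2 and some of the other genes listed as H3K36 methyltransferases were lower with Cre. Of 9 H3K36 methyltransferase genes, 3 fell and 0 rose (edgeR, 4 at an unadjusted p under 0.05), with a median log2 fold change of -0.21, or -0.07 with the GC content and length offsets. Both counts include Setd2, whose fall follows from the design. Over all tested genes 3.22% were called lower and 20.9% had an unadjusted p under 0.05 in the same fit. Setd2, the deleted gene, had 1400 and 1250 counts with GFP and 551 and 468 with Cre (log2 fold change -1.60, standard error 0.08, adjusted p = 3.65e-15 in edgeR). All 4 libraries match their labels in this respect, although exons that are not floxed still contribute to the total of the gene. Nsd1 fell from 114 and 131 CPM to 104 and 99.5 CPM (log2 fold change -0.27, adjusted p = 0.0142 in edgeR). Whsc1, also known as Nsd2, fell from 70.3 and 78.0 CPM to 64.0 and 57.1 CPM (-0.29, adjusted p = 0.0149 in edgeR).

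Ash1l (-0.21, adjusted p = 0.0551 in edgeR) and Whsc1l1 (-0.13) did not pass, and Smyd2 (0.00), Setd3 (-0.02), Setmar (-0.07) and Prdm9 (-0.35) had intervals that included 0. For Smyd2, 30.0% of the exon bases lie under an antisense gene. The falls of Nsd1 and Whsc1 depended on the processing. DESeq2, scaling by library size alone, no low-count filter, and the GC content and length offsets each called only Setd2 of the 9. For Setmar and Prdm9 DESeq2 gave no adjusted p. With 1 library left out, Nsd1 ran from -0.36 (without GFP replicate 1) to -0.16 (without GFP replicate 2). Whsc1 ran from -0.37 to -0.21 and Setd2 from -1.71 to -1.48 (without Cre replicate 1 and without Cre replicate 2). Calls are not compared in these fits, where a lone library is assumed to vary like the other group. With the offsets Nsd1 was at -0.13 and Whsc1 at -0.17. A robust dispersion estimate called 4 of the 9, with Ash1l added (adjusted p = 0.0241 in edgeR). It also called more genes in the whole table, 1334 of 14483 against 1009 in the main fit. A difference in response between demethylases and methyltransferases as groups of genes was not tested.

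Within a library, the summed level of the 6 demethylases relative to the 9 methyltransferases does not depend on the scaling between libraries, but trends with GC content and length were not removed from it. This ratio of CPM per kb was 0.644 and 0.665 in the GFP libraries and 0.777 and 0.785 in the Cre libraries. Without Setd2 in the sum it was 0.742 and 0.761 with GFP and 0.820 and 0.823 with Cre. Smyd2 (mean 25.5 CPM per kb) and Setd3 (14.2) contribute most to the sum without Setd2. Whether Smyd2 and Setd3 methylate H3K36 in these cells was not tested. The ratio therefore compares lists of genes and does not measure the placing and removal of the mark. The ratio in both Cre libraries was above that in both GFP libraries with or without Setd2 in the sum. Such an order is common, as 24.5% of all tested genes had both Cre libraries above both GFP libraries. The sum with Setd2 also holds the deleted gene. A shift of the ratio was not tested. The demethylase sum was 48.5 and 52.2 CPM per kb with GFP and 52.1 and 51.3 with Cre, so the groups overlapped. The methyltransferase sum went from 75.3 and 78.5 to 67.1 and 65.3. Without the deleted Setd2 it went from 65.4 and 68.6 to 63.6 and 62.3. With lengths of the longest transcript the ratios without Setd2 were 0.614 and 0.628 against 0.674 and 0.672.

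**Figure D3:**
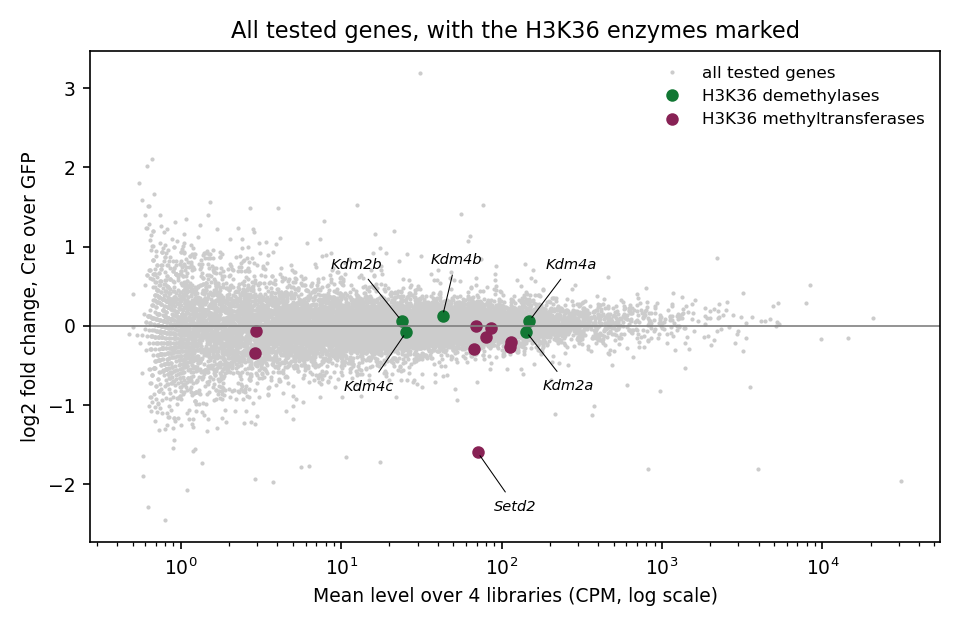
Mean level over the 4 libraries (CPM, log axis) against the log2 fold change of Cre over GFP for the 14483 tested genes (grey), with the 5 tested demethylases in green and the 9 methyltransferases in purple. The demethylases lie within the grey band at -0.08 to 0.13, and Setd2 lies apart at -1.60.

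The other genes around the demethylases mostly gave small values as well. Of 15 other tested genes of JmjC demethylases and LSD enzymes, 0 rose and 0 fell (edgeR, 4 at an unadjusted p under 0.05). DESeq2 gave 0 on both measures. Their median was -0.02, and 0.09 with the GC content and length offsets. The most abundant were the H3K4 demethylases Kdm5c (-0.02) and Kdm5b (0.10). The Y-linked Kdm5d and Uty had 0 counts in all 4 libraries, where a floor of 3 counts allows up to 0.255 CPM. With the GC content and length offsets Kdm5b (0.20, adjusted p = 0.00210 in edgeR) was called higher and Phf2 (-0.20, adjusted p = 0.0260) lower. These offsets also called more genes in the whole table, 1402 of 13823 against 1009 of 14483 in the main fit.

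Of 9 tested JmjC proteins outside the KDM numbering, 1 rose and 0 fell. Jmjd8 went from 7.74 ± 0.614 to 13.4 ± 1.55 CPM (SD, n = 2 each), at a log2 change of 0.80 (adjusted p = 0.000327 in edgeR). Its 96 and 96 counts with GFP and 178 and 210 with Cre did not overlap, but 39.3% of its exonic sequence overlaps Stub1 or Mir3082 on the opposite strand, so the count is uncertain. Jmjd8 was also called by DESeq2 (adjusted p = 0.0243). In edgeR it was called with scaling by library size alone (adjusted p = 0.00197) and with the GC content and length offsets (3.11e-05). With 1 library left out it ran from 0.67 (without Cre replicate 2) to 0.92 (without Cre replicate 1). The asparagine hydroxylase gene Hif1an (0.02) and Jmjd6 (0.15) were the most abundant of this list and did not pass, and its median was 0.02.

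For the partners of Kdm2b in PRC1.1, 0 of 9 were called (edgeR, 2 at an unadjusted p under 0.05, and 0 by DESeq2 on both measures), with a median of -0.06. Skp1a (0.02), which binds F-box proteins such as Kdm2b, and the deubiquitinase gene Usp7 (-0.06) were the most abundant. Of 9 tested genes of other CXXC proteins, 2 fell and 0 rose, with a median of -0.06. They were Kmt2a (-0.35, adjusted p = 0.00361 in edgeR), a methyltransferase of H3K4, and Tet1 (-0.90, adjusted p = 0.0222 in edgeR), a DNA demethylase, with 47 and 40 counts with GFP and 31 and 23 with Cre. The maintenance DNA methyltransferase gene Dnmt1 (-0.20, adjusted p = 0.0601 in edgeR) and Kmt2b (-0.14) did not pass. Both were called lower with the GC content and length offsets, for 4 falls in all. DESeq2 and scaling by library size alone called only Kmt2a. For Tet1, DESeq2 gave a log2 fold change of -0.90 but no adjusted p, and scaling by library size alone gave an adjusted p of 0.0616 in edgeR. With 1 library left out, Kmt2a ran from -0.50 (without Cre replicate 1) to -0.21 (without Cre replicate 2). Tet1 ran from -1.13 to -0.70 in the same fits.

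Kdm4a to Kdm4d also act on H3K9. Of 9 genes of H3K9 methyltransferases and their HP1 readers, 1 fell, the HP1 gene Cbx5 (-0.38, adjusted p = 0.00124 in edgeR), and 0 rose, with Ehmt2 at 0.06, Ehmt1 at -0.06 and a median of -0.06. Cbx5 was also called by DESeq2 (adjusted p = 0.00690). In edgeR it was called with scaling by library size alone (adjusted p = 0.0234) and with the GC content and length offsets (0.000414). With 1 library left out it ran from -0.52 (without Cre replicate 1) to -0.25 (without Cre replicate 2). Among 20 readers of H3K36 methylation, with a median of 0.01, 0 rose and 1 fell, the mismatch repair gene Msh6 (-0.37, adjusted p = 0.00986 in edgeR), which did not pass in DESeq2 (adjusted p = 0.167). With 1 library left out, Msh6 ran from -0.45 (without Cre replicate 1) to -0.28 (without Cre replicate 2). The abundant readers Hdgf (0.02) and Glyr1 (0.08) did not pass. With the GC content and length offsets the DNA methyltransferase gene Dnmt3a was called higher (0.23, adjusted p = 0.0199 in edgeR) and the median of the readers was -0.02. Of 11 enzymes that make or use 2-oxoglutarate and 2-hydroxyglutarate, 0 were called (edgeR, 1 at an unadjusted p under 0.05, and 0 by DESeq2 on both measures), with Glud1 at 0.00, Ogdh at 0.12 and a median of 0.00. Without a low-count filter edgeR called only 30 of 25476 genes. Jmjd8, Kmt2a, Tet1, Cbx5 and Msh6 were not among them (adjusted p = 0.137 to 0.331).

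Among 10899 genes with a mean of at least 5 CPM, those nearest to each member by Euclidean distance of centred log2 CPM over the 4 libraries were Abat for Kdm2a (0.01), Sp110 and Pdpk1 for Kdm2b (0.02 each), Vdac3 and Pkmyt1 for Kdm4a (0.01 each), Rarg and Dennd2a for Kdm4b (0.01 each), and Gm13157 and Tial1 for Kdm4c (0.01 each). Between 495 (Kdm2b) and 1442 (Kdm2a) genes lay within a distance of 0.1, so that 4 libraries single out few genes.

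The direction of the small differences depended on the libraries or on the processing for some members. Kdm4b stayed above 0 and Kdm4c below 0 in all 15 alternatives that were run, between 0.04 and 0.21 and between -0.13 and -0.02. Kdm2a changed sign with the GC content and length offsets, Kdm2b without Cre replicate 1 and Kdm4a without GFP replicate 1. No member passed an adjusted p of 0.05 in any of the 75 member values.

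**Figure D4:**
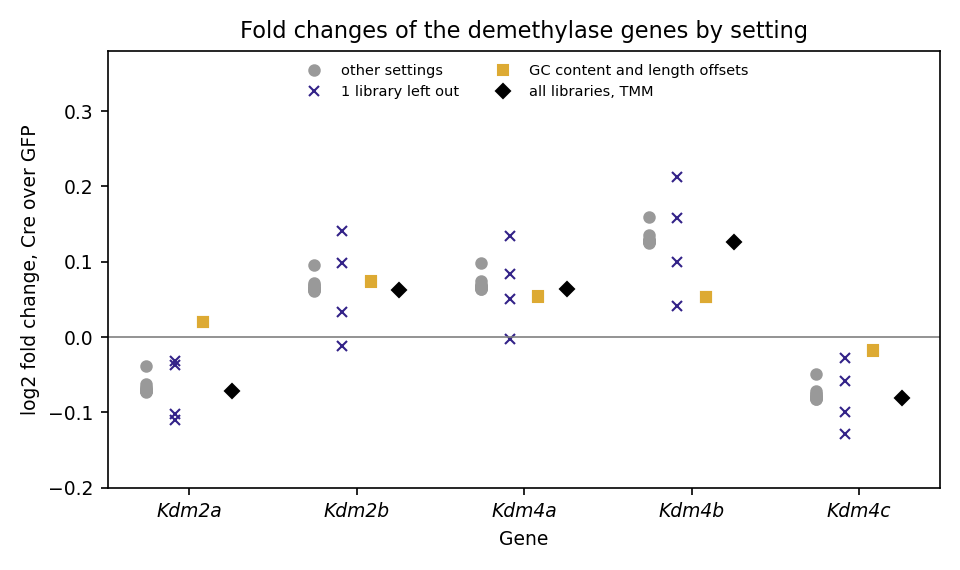
log2 fold change of Cre over GFP for each tested demethylase under all libraries with TMM (black diamonds), with 1 library left out (crosses), with GC content and length offsets (squares) and with the other settings (grey circles). Values stay between -0.13 and 0.21, and those with 1 library left out run from -0.11 to -0.03 for Kdm2a and from 0.04 to 0.21 for Kdm4b.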

How the data were processed

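The values, as deposited, are raw whole-number read counts per gene in 4 libraries (GFP and Cre, 2 each). Libraries came from 1 µg of total RNA with a TruSeq kit, per the labels' protocols. The labels do not state that strand was kept or used in counting. The submitters' processing notes name HISAT2 and the build GRCm38. For the counting program, its annotation and reads with several positions nothing is given in the sources used here, so overlapping genes and near-identical copies are uncertain. Groups and replicate numbers came from the labels.

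Counts were tested with edgeR 4.0.16 in R 4.3.3: filterByExpr (minimum count 10, minimum total 15; 14483 genes kept), TMM (factors 0.951 to 1.03), and its quasi-likelihood F-test on the virus alone. Benjamini-Hochberg adjustment covered every tested gene; calls needed an adjusted p under 0.05. The fit was tested on simulated data with 50 genes changed at each fold. It recovered 36% of them at 1.25-fold, 66% at 1.5-fold and 98% at 2-fold, with 4 false calls among 153. Intervals are 95% and unadjusted. Lengths are exon bases in GENCODE M21 (32355 of 44788 genes matched). For the GC content and length offsets, a spline trend of each library in the GC content and length of the longest transcript was removed, over 13823 genes. DESeq2 1.42.0 and limma 3.58.1 were alternatives. Reads carry no molecular identifiers, so floors cover counting error only.

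The members and gene lists were chosen with earlier results of these data known. Named were the 6 members, all H3K36 methyltransferases, in the other 7 lists up to 6 called genes and the 2 most abundant uncalled ones, in each cell type list the 2 most abundant genes and those at 0, and for each tested member the 2 genes nearest in pattern. Calcr, Ocstamp, Dcstamp, Oscar, Cxcl12, Dnmt3a, Kdm4dl, Kdm5d, Uty and Phf2 were named after their values were seen. Of 140 list entries, 1 was not found in the table. Of the genes this rule names, 2 are not reported here.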

Additional observations from a re-analysis of the deposited data

How the results depend on the processing

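The 5 tested members stayed short of an adjusted p of 0.05 under all 15 alternatives, and 71 of 75 values kept their direction. Kdm2a was at 0.020 with the GC content and length offsets, and at 0.020 when the replicate block was added to them; Kdm2a ran from -0.11 to -0.03 with 1 library left out. Leaving out 1 library gave -0.011 to 0.140 for Kdm2b, -0.0022 to 0.135 for Kdm4a, 0.04 to 0.21 for Kdm4b and -0.13 to -0.03 for Kdm4c. The cause was not tested. The number of genes called in the whole table moved from 1009 to 530 with scaling by library size alone, 380 with DESeq2, 30 without a low-count filter, and 0 to 516 with 1 library left out (0 without GFP replicate 2, 12 without GFP replicate 1, 373 without Cre replicate 2), where a lone library is assumed to vary like the other group. With the replicate block 829 genes were called and no member call changed. The replicate numbers share no stated culture or day. Deviations of same-numbered libraries from their group means were not correlated (r = -0.01 over 14483 genes). With 2 libraries per virus, that value cannot show whether the numbers pair the libraries. Kdm4d could be tested only in DESeq2 and without a low-count filter. Depth limits Kdm4d most, since both GFP libraries were under the floor of 3 counts.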
